A study of Mus musculus with 2 samples.

Results

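Genes of the methionine cycle and of transsulfuration were followed in RNA from NE4C cells, a clonal mouse neural stem cell line that was derived from the forebrain of an embryo lacking p53. The control was 1 library from a normal culture, and the other was 1 library from a culture given HTL, that is homocysteine thiolactone, which forms when homocysteine closes into a ring and which attaches to lysine residues of proteins. Both cultures were grown in Eagle MEM on poly-L-lysine, and neither dose nor length of the HTL treatment is stated in the labels. The authors' methods describe serum starvation before HTL for their protein modification experiments. They do not say whether the cultures used for RNA were starved. The members were chosen by name: the 9 genes Mat2a, Mat2b, Ahcy, Ahcyl1, Ahcyl2, Mtr, Mtrr, Cbs and Cth, of 16803 genes in the table. All 9 passed the filter of at least 10 reads in both libraries together, which left 13442 genes to compare, and the least read member had 219 reads. With 1 library per condition no difference has a replicate check. Intervals in brackets after a log2 ratio or a level relative to control are 95% exact Clopper-Pearson intervals, taken on how a gene's reads divide between the libraries. They cover counting error between these 2 libraries only. Intervals of FPKM are exact Poisson 95% intervals of the reads within 1 library. In bulk RNA, fewer expressing cells and less RNA per cell cannot be told apart.

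The methionine cycle turns methionine into S-adenosylmethionine (SAM), the methyl donor of DNA, RNA and histone methyltransferases. After the methyl group is given away, S-adenosylhomocysteine remains and is split into homocysteine and adenosine. Homocysteine then either receives a methyl group from folate and becomes methionine again, or leaves the cycle through transsulfuration, which makes cystathionine and then cysteine. Homocysteine thiolactone arises when methionyl-tRNA synthetase takes up homocysteine by mistake and edits it away. The folate and homocysteine steps are long linked with neural tube closure.

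Pairs of values are given with the control library first and the HTL treatment library second. The libraries held 10350665 and 9102076 reads after rounding. Of 10 neural stem cell markers chosen for the check, 9 passed the filter. Nestin (Nes) had 25.14 and 24.08 FPKM, a level scaled to transcript length and library size, while Fabp7 had 2 reads in each. The summed level of these markers was 592 and 471 CPM, a level scaled to library size alone. Of the 9, 4 had a log2 ratio above 0 and 5 below 0. Past 2-fold were 3 lower, Sox2 (894 and 285 reads), Vim (1487 and 648) and Sox1 (48 and 12), and 1 higher, Notch1 (124 and 231). Among markers of other cells, the 5 neuron genes summed to 81.3 and 102 CPM, with Stmn2 (309 and 403 reads) and Tubb3 (296 and 396) higher and Dcx (88 and 29, past 2-fold) and Map2 (114 and 66) lower. The fibroblast and endothelial genes summed to 9.66 and 10.1 CPM, with Col1a1 and Col1a2 (12 and 25 reads each) past 2-fold higher, and Pdgfra at 45 and 27 reads and Pecam1 at 31 and 15. The glial genes summed to 18.8 and 20.7 CPM, with Gfap at 2 and 0 reads. The microglia and blood genes summed to 2.03 and 1.76 CPM. The part of these markers in the results below was not tested.

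Most members were lower in the HTL treatment library, and Mat2a stood far below the others. Of the 9 members, 3 were at least 2-fold lower (a log2 ratio of -1 or less): Mat2a, Mtrr and Ahcy. Over all genes tested, 12.2% were that much lower. No member was 2-fold higher, against 4.72% of all genes tested. With edgeR's TMM scaling, which adds 0.13 to every log2 ratio, these background shares were 9.44% and 6.41%, and the members' counts stayed at 3 and 0. The median log2 ratio of the members was -0.80, and that of all genes tested was -0.14. The interval lay below 0 for 7 members and above 0 for 2, Cth and Ahcyl2, where it lay below 0 for 36.2% and above 0 for 23.2% of all genes tested. With TMM scaling the intervals of Mtr and Cbs included 0, which left 5 members below 0, and the shares of all genes tested were 28.7% and 29.8%. At the study's cutoffs, a 2-fold difference together with an adjusted p of at most 0.001, here from an exact binomial test (two-sided), the same 3 members passed as lower and 0 as higher, where 7.98% of all genes tested passed as lower and 2.81% as higher. That test compares the libraries, not the conditions. The Ahcy value depends on a near-identical gene, described with it.

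**Figure D1:**
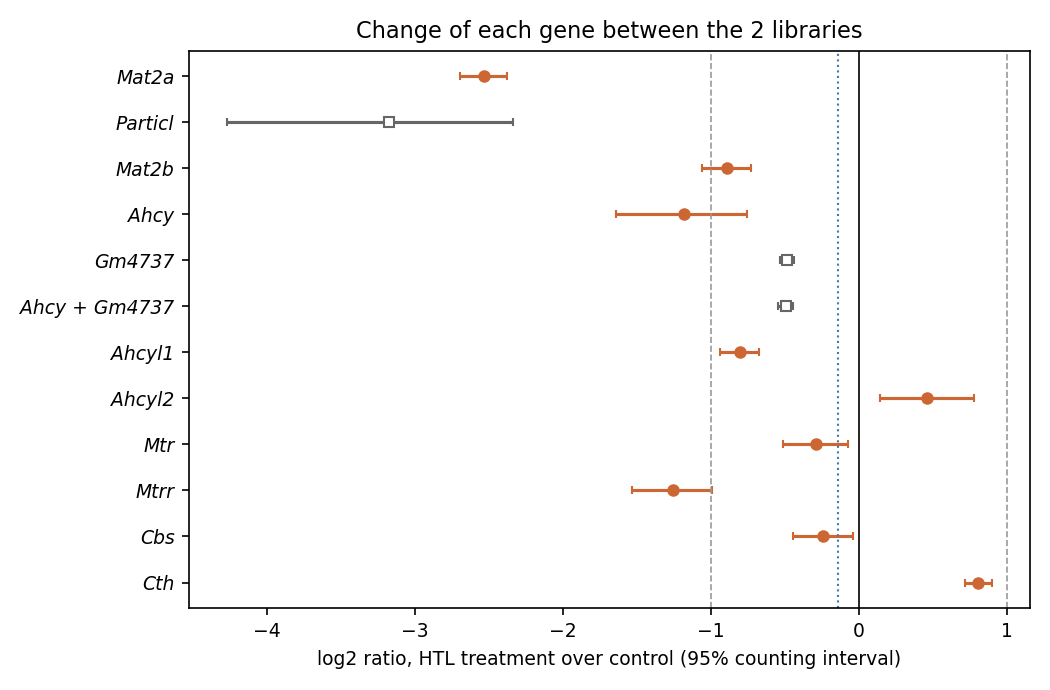
Log2 ratio of HTL treatment over control for the 9 members (filled circles) and for Particl, Gm4737 and the sum of Ahcy and Gm4737 (open squares), with 95% counting intervals from 1 library per condition. Dashed lines mark 2-fold differences, and the dotted line marks the median of all genes tested at -0.14. Mat2a sits at -2.53, Cth at 0.81, and adding Gm4737 moves Ahcy from -1.18 to -0.49.

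SAM is made by methionine adenosyltransferase II, whose catalytic subunit is encoded by Mat2a and whose regulatory subunit is encoded by Mat2b. Mat2a (gene ID 232087; NCBIM37, which is mm9, chr6:72382793-72389552, minus strand) was read 2534 times in the control and 385 times after HTL. The HTL treatment level was 17.3% of the control level (15.5 to 19.2%), a log2 ratio of -2.53 (-2.69 to -2.38). In FPKM it went from 86.93 to 14.99. Among the 2236 genes with at least 1000 control reads, only Ash1l (4702 and 706 reads) and Bnip3 (1638 and 136 reads) had a lower ratio. That pool was set by the control library alone, through which Mat2a entered it, so the rank only describes this pool. Over all genes tested, 1.08% had a lower ratio, so Mat2a lay at the low edge of the whole table and not only of its pathway. Mat2b (gene ID 108645; chr11:40492816-40508705, minus strand) had 914 and 433 reads. Its log2 ratio was -0.89 (-1.06 to -0.73), short of 2-fold, although the interval reaches past -1. The balance of the subunits therefore differed between the libraries: Mat2a had 2.02 times the FPKM of Mat2b in the control and 0.641 times after HTL. This ratio within a library does not depend on the scaling, and its log2 difference was -1.64 (-1.87 to -1.41, exact conditional interval).

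Particl, a long non-coding RNA of the opposite strand, starts inside Mat2a. Its RefSeq start window matched NCBIM37 exactly at 1 place, which puts its first base at position 72388677 of chromosome 6, within the first intron of Mat2a. Run unspliced over its 1933 listed bases, it crosses the whole first exon of Mat2a (213 bases) and goes on past the Mat2a start. Particl (gene ID 78108) was read 117 times in the control and 11 times after HTL, which put its log2 ratio at -3.17 (-4.27 to -2.33). In FPKM it went from 5.86 to 0.62. Both genes were lower, and the ratio of Mat2a to Particl reads, 21.7 and 35.0, did not differ beyond counting error (log2 difference 0.69, -0.22 to 1.75). Whether the counting used strand is not given in the sources used here, so reads where the transcripts may overlap cannot be given to either strand. Particl held 4.4% of the reads of the pair in the control library, and adding them left Mat2a at -2.56. The 250 bases before the RefSeq start of Mat2a would lie inside Particl on the other strand if Particl is unspliced; its exons were not analysed here. They are shown because Mat2a starts next to them and an unspliced Particl would cross them (RefSeq sequence, found in NCBIM37 at chr6:72389551-72389800, minus strand, 5′ to 3′). Capitals mark the TATA box letters TATAAA, the box known as CCAAT and the GC box letters GGGCGG on either strand, without overlaps. A further GC box match, which begins in the last capitals of the marked CCGCCC, is therefore not capitalised in full:

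Mat2a: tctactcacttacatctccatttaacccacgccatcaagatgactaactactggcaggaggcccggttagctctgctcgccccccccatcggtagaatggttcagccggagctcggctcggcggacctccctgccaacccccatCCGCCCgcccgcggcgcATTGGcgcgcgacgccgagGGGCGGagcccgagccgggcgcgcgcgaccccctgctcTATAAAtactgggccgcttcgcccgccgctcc

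These motifs, the E-box letters CACGTG and the amino acid response letters TGATGNAA were searched on both strands of the 300-base RefSeq start windows (250 bases before the start and 50 after). None of the 5 motifs contains another. Windows were found for 8 of the 9 members, 13 windows in all; Cth is named only. GGGCGG was in 11 of these 13 windows and in 35.7% of all 32851 windows. CCAAT was in 7 of the 13 and 37.4% of all, TATAAA in 3 (1 each of Mat2a, Ahcyl1 and Ahcyl2) and 13.6%, CACGTG in 1 (Cbs) and 7.15%, and TGATGNAA in 0 and 3.97%. Windows of 1 gene can overlap. The match is a description of letters, not of binding.

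S-adenosylhomocysteine is split by the hydrolase encoded by Ahcy. Ahcy (gene ID 269378; chr2:154885046-154900233, minus strand) was read only 158 and 61 times, at 5.95 and 2.6 FPKM, and its log2 ratio was -1.18 (-1.64 to -0.75). The table also lists Gm4737 (gene ID 11615; chr16:46153110-46155190, minus strand), a gene with 1 exon. The coding sequences of Ahcy (10 exons) and Gm4737 have 1299 bases each, differ at 4 bases and encode the same 432 residues. The stretch with the most differences, coding bases 355 to 474 of NCBIM37 transcripts, shows how little there is to tell reads apart. Capitals mark the 2 bases that differ:

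Ahcy: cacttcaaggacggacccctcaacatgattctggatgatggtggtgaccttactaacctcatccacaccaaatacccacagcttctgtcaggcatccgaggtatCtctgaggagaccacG
Gm4737: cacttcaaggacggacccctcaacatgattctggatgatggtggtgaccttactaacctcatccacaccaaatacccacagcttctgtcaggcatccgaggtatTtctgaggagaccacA

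Of all stretches of 50 bases in the longest Ahcy transcript, 73.9% also occur in Gm4737. The other 26.1% lie at the few differing bases, in the first 41 bases, or in the last 422 bases, past the last shared stretch. No other member shared a stretch of 50 bases with another protein-coding gene. Gm4737 had 8382 and 5272 reads and thus received 98.2% and 98.9% of the reads of the pair. Its log2 ratio was -0.48 (-0.53 to -0.43). Summed, Ahcy and Gm4737 was read 8540 and 5333 times (log2 ratio -0.49, -0.54 to -0.44), which is 71% of the control level and short of a 2-fold difference. How the estimated reads were split between the pair differed between the libraries by a log2 difference of -0.70 (-1.16 to -0.27, exact conditional interval). This interval, like those of Ahcy and Gm4737, takes the assigned reads as counted. It leaves out error in assigning reads to the pair, so a shift in the split was not tested. Which of the genes the reads came from cannot be told from the table. With the sum in place of Ahcy, 2 members, Mat2a and Mtrr, were past 2-fold lower, and the median log2 ratio of the members was -0.49.

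Ahcyl1 and Ahcyl2 encode proteins that resemble the hydrolase, of which Ahcyl1 (IRBIT) is best known as a binding partner of the inositol trisphosphate receptor. They differed in direction. Ahcyl1 (gene ID 229709; chr3:107466036-107499478, minus strand) was read 1438 and 724 times (log2 ratio -0.80, -0.94 to -0.67). Ahcyl2 (gene ID 74340; chr6:29718443-29862310, plus strand) was read 151 and 183 times (log2 ratio 0.46, 0.14 to 0.78). Ahcyl1 remained the more abundant, with 12.8 times and then 5.25 times the FPKM of Ahcyl2, a log2 difference of -1.27 (-1.61 to -0.92).

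**Figure D2:**
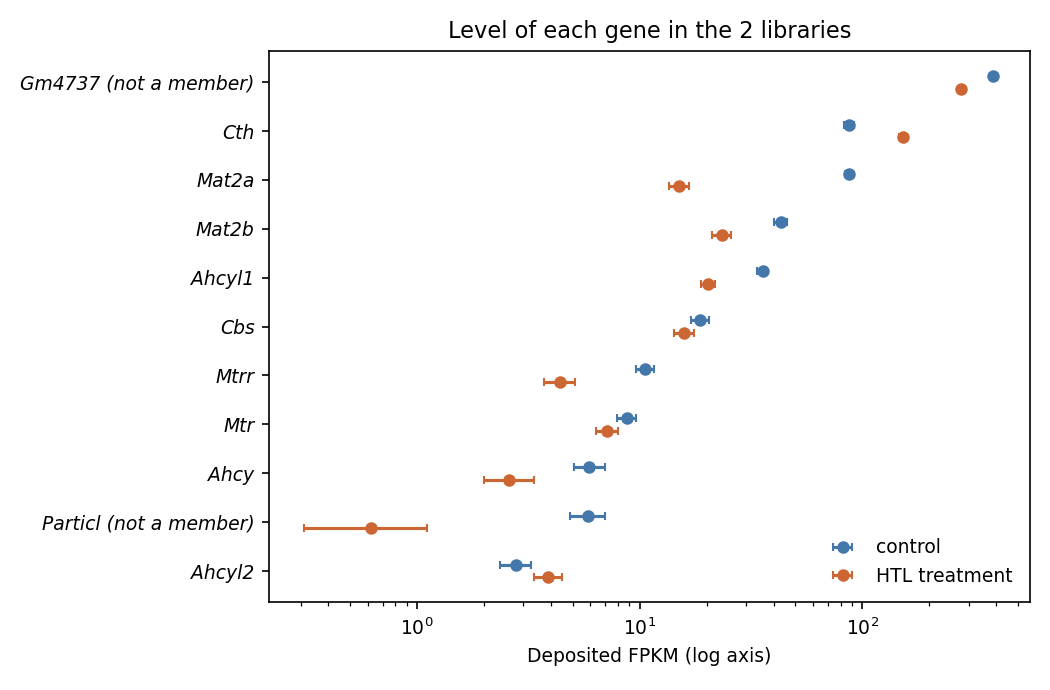
Deposited FPKM (log axis) of the 9 members and of Gm4737 and Particl in the control library (blue) and the HTL treatment library (orange), with exact Poisson 95% intervals of the reads and 1 library per condition. Mat2a goes from a level equal to that of Cth in the control library (86.93 and 87.01 FPKM) to 14.99 FPKM, below Mat2b and Ahcyl1, while Cth is highest of the members in both.

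Homocysteine is methylated back to methionine by methionine synthase, encoded by Mtr, with a cobalamin cofactor that the reductase encoded by Mtrr keeps active. Mtr (gene ID 238505; chr13:12279086-12350267, minus strand) was read 410 and 295 times (log2 ratio -0.29, -0.51 to -0.07). This interval includes the median of all genes tested. Mtrr (gene ID 210009; chr13:68699657-68720998, minus strand) was read 424 and 156 times (log2 ratio -1.25, -1.53 to -0.99), or 41.9% of the control level. The reductase thus went from 1.21 to 0.615 times the FPKM of the synthase, a log2 difference of -0.97 (-1.32 to -0.62).

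Transsulfuration begins with cystathionine beta-synthase (Cbs), which joins homocysteine to serine, and ends with cystathionine gamma-lyase (Cth), which releases cysteine. Cbs (gene ID 12411; chr17:31749568-31774144, minus strand) was read 477 and 355 times (log2 ratio -0.24, -0.44 to -0.04), with the median of all genes inside its interval. Cth (gene ID 107869; chr3:157557212-157588041, minus strand) had 1630 and 2509 reads. Its level was 1.75 times higher in the HTL treatment library (1.64 to 1.86), a log2 ratio of 0.81 (0.72 to 0.90), and 92.7% of all genes tested had a lower ratio. Cth thus had 4.67 times the FPKM of Cbs in the control and 9.65 times after HTL, a log2 difference of 1.05 (0.83 to 1.27). Against Mat2a, which takes methionine into the cycle, Cth went from 1 to 10.1 times its FPKM, a log2 difference of 3.34 (3.16 to 3.52).

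Ordered by FPKM in the control library, the members were Cth (87.01), Mat2a (86.93), Mat2b (43.07), Ahcyl1 (35.65), Cbs (18.63), Mtrr (10.57), Mtr (8.75), Ahcy (5.95) and Ahcyl2 (2.78). Of the neighbours in this order, the intervals of Cth and Mat2a overlapped (82.8 to 91.3 and 83.6 to 90.4), as did those of Mtrr and Mtr by a small margin (9.59 to 11.6 and 7.92 to 9.64). In the HTL treatment library the order was Cth (152 FPKM), Mat2b (23.38), Ahcyl1 (20.37), Cbs (15.75), Mat2a (14.99), Mtr (7.14), Mtrr (4.39), Ahcyl2 (3.88) and Ahcy (2.6). There the intervals of Mat2b and Ahcyl1 overlapped, as did those of Cbs and Mat2a, Mtrr and Ahcyl2, and, where they touch at 3.34, Ahcyl2 and Ahcy. Mat2a moved from the second place to the fifth, and Cth kept the first. Gm4737, with 386.96 and 276.22 FPKM, lay above every member in both libraries, so the place of Ahcy in these orders rests on how its reads were split.

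**Figure D3:**
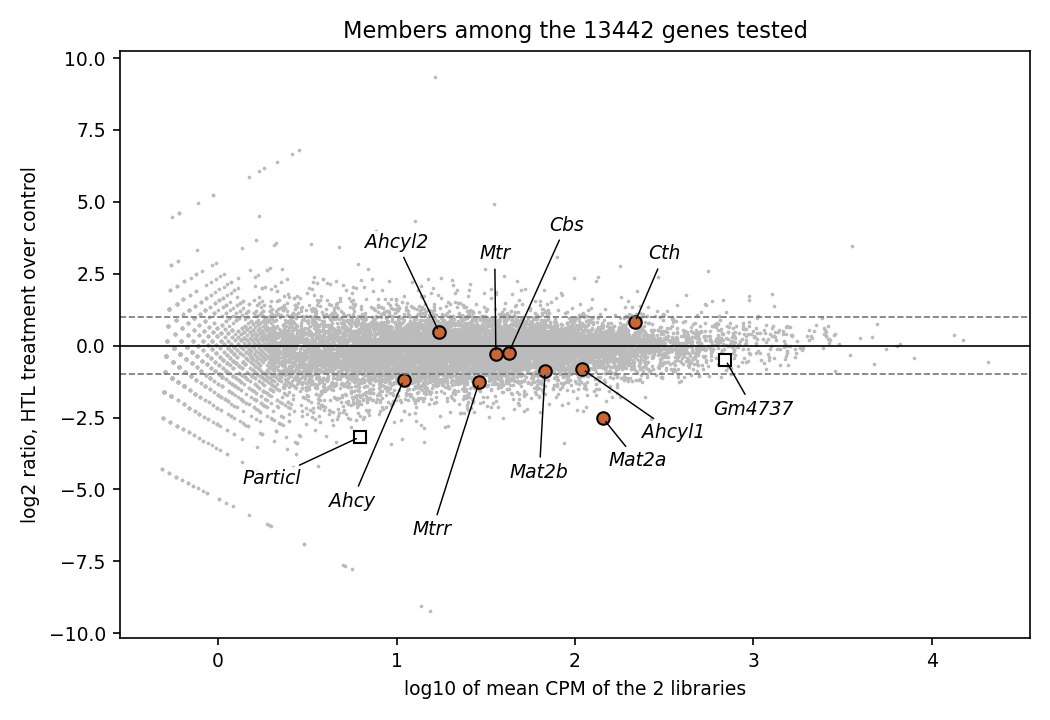
Log2 ratio of HTL treatment over control against the log10 mean CPM of both libraries for the 13442 genes tested (grey), with the 9 members as filled circles and Particl and Gm4737 as open squares. Dashed lines mark 2-fold differences. At its level Mat2a lies below nearly all other genes, while Mtr and Cbs lie within the main band.

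Genes around the cycle were compared next, as 8 lists with 57 genes tested. In these lists 0 genes were 2-fold higher and 5 were 2-fold lower, or 8.77%, where 12.2% of all genes tested were 2-fold lower and 4.72% higher. With TMM scaling 2 became 2-fold higher, Azin1 and Ethe1, and the same 5 were lower. The median log2 ratio of the 57 genes was -0.12, close to the -0.14 of all genes tested. The other enzymes of the cycle had 4 genes tested, with a median of -0.21. Gamt, which uses SAM to make creatine, was read 52 and 20 times (log2 ratio -1.17, -2.02 to -0.42), and the most abundant, Aldh7a1, a dehydrogenase that makes betaine, was at 0.33 (0.20 to 0.47). Mat1a, Bhmt, Bhmt2, Dmgdh, Sardh and Nnmt, also on this list, were not found by name among the 16803 genes and could not be compared.

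Mat2a RNA is known to be processed according to the SAM level, through the RNA methyltransferase Mettl16, the reader Ythdc1 and the cleavage factor subunits Nudt21 and Cpsf6. Mettl16 was read 1478 and 1448 times (log2 ratio 0.16, 0.05 to 0.26). Ythdc1 was at -0.12 (-0.25 to 0.004) and Nudt21, the most abundant of the list, at 0.13 (0.03 to 0.24). Cpsf6 alone of the 5 genes was past 2-fold, with 2075 reads, then 647 (log2 ratio -1.50, -1.63 to -1.37). Slc25a26, which carries SAM into mitochondria, was at -0.19 (-0.66 to 0.27).

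The list of 10 genes of cobalamin uptake and processing, which also holds Mut, a mutase that uses the adenosyl form, and Mcee, an epimerase of the same pathway that does not handle cobalamin, had a median log2 ratio of -0.40, and 2 were past 2-fold lower. Mmachc, which frees cobalamin for both of its enzymes, was read 396 and 156 times (log2 ratio -1.16, -1.44 to -0.89). Mmab, which makes the adenosyl form used in mitochondria, was read 101 and 12 times (log2 ratio -2.84, -3.89 to -2.02). Mmadhc, the most abundant with 47.04 and 59.77 FPKM, was at 0.35 (0.19 to 0.51). Tcn2, which carries cobalamin in blood, had the highest ratio of the list, with 203 reads, then 326 (log2 ratio 0.87, 0.61 to 1.13).

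With scaling to the library totals, no gene past 2-fold was found among 6 methionine salvage genes (median log2 ratio -0.17; Got1, the most abundant, at 0.54), 11 polyamine genes (median 0.17), 10 genes of cysteine use and hydrogen sulfide (median -0.20; Tst, the most abundant, at -0.41) or 5 genes of HTL formation and hydrolysis (median 0.08). Among the polyamine genes, Odc1, the first enzyme of the pathway, was read 6719 and 8038 times (log2 ratio 0.44, 0.40 to 0.49), and Amd1, which draws on SAM, was read 2445 and 1392 times (log2 ratio -0.63, -0.72 to -0.53). Azin1, which protects Odc1 from its antizymes, had the highest ratio of the list, with 1049 reads, then 1717 (log2 ratio 0.90, 0.78 to 1.01). Ethe1, which oxidises persulfides, had the highest among the genes of cysteine use, with 48 reads, then 80 (log2 ratio 0.91, 0.39 to 1.47). Amd1 has a listed near copy, Amd2, with 82 and 86 reads. Of the genes that handle the thiolactone itself, Mars, the synthetase that forms it, was read 1137 and 1393 times (log2 ratio 0.48, 0.36 to 0.59), and Blmh, which hydrolyses it, was read 1820 and 1829 times (log2 ratio 0.19, 0.10 to 0.29). Pon2, a paraoxonase, differed in the other direction and had the largest difference of the 5 genes, with 133 reads, then 67 (log2 ratio -0.80, -1.25 to -0.37). Among 6 genes of adenosine handling (median -0.05), Nt5e, which makes extracellular adenosine, was read 115 and 17 times (log2 ratio -2.54, -3.40 to -1.83), and Aprt, the most abundant, was at 0.07 (-0.11 to 0.26).

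**Figure D4:**
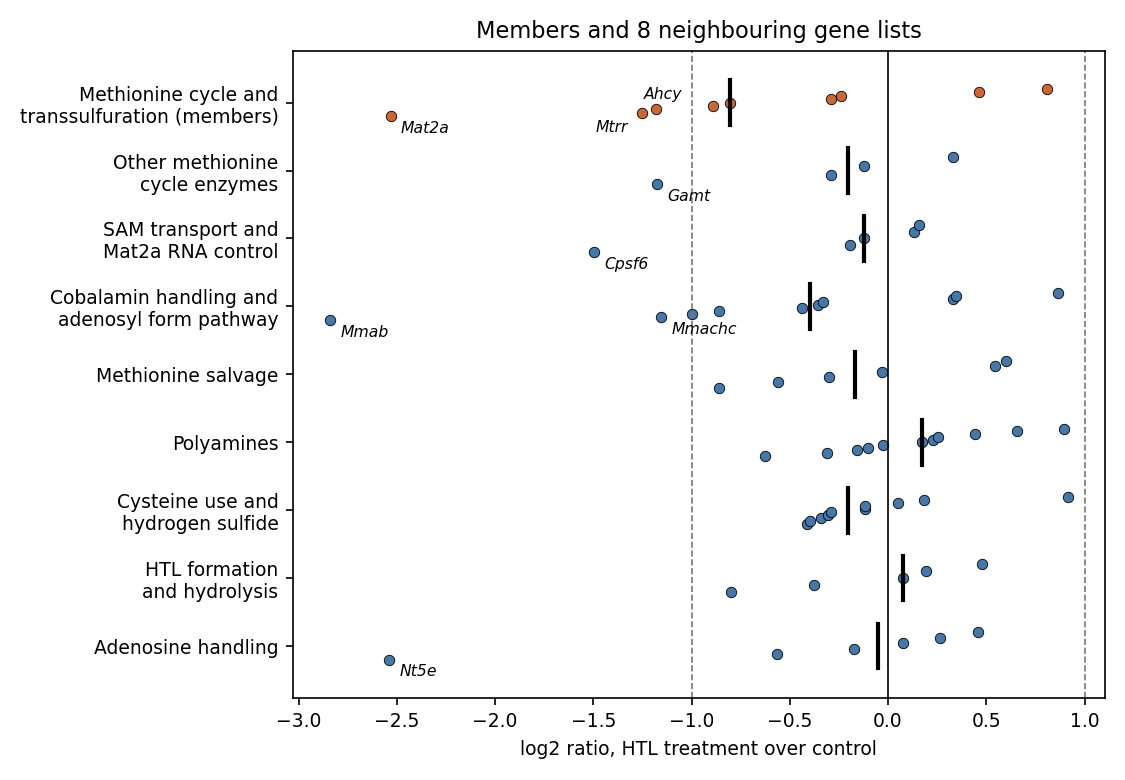
Log2 ratio of HTL treatment over control for the genes tested in each list, with the 9 members in orange, the 8 neighbouring lists in blue, a black bar at each median, and names for genes past the dashed 2-fold lines. The median of the members, -0.80, is the lowest of the 9 lists, and the medians of the neighbouring lists run from -0.40 to 0.17.

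Because these libraries cannot measure the spread between cultures, an assumed one was put into the exact test of edgeR. At a coefficient of variation of 0.1, the adjusted p (Benjamini-Hochberg over all genes tested) was 2.02e-23 for Mat2a, 7.62e-05 for Mtrr, 0.00317 for Ahcy and 0.00014 for Cth. With 0.2, it was 1.49e-05 for Mat2a, 0.13 for Mtrr, 0.221 for Ahcy and 0.222 for Cth. With 0.4, Mat2a was at 0.955 and each other member at 1.0. Among genes averaging 500 reads or more, the 3 whose log2 ratio lay nearest to that of Mat2a were Ash1l (-2.55), Ankrd44 (-2.32) and Pdk1 (-2.29).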

How the data were processed

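RNA from NE4C cells gave 1 control library and 1 HTL treatment library, grouped by sample title. The labels name the Illumina TruSeq RNA kit and BGISEQ sequencing, and the submitters' processing notes name mm9. The authors mapped cleaned reads to mouse and obtained expression with software their methods spell RESM, read here as RSEM. Mapper, versions, annotation and use of strand are not given in the sources used here. The authors deposited 1 table with estimated counts, not normalized, and FPKM, which they scaled to transcript length and library size. The authors' deposited length column is in bases. The authors' deposited log2 ratio, p-value and FDR hold their own comparison and were not used.

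Estimated counts were rounded to whole numbers (10350665 and 9102076 reads). Genes with at least 10 reads together were compared, after scaling to the library totals, with 0.5 read (scaled to the totals) added before log2. No molecular barcodes are named in the labels, so reads are not taken as independent molecules. Binomial tests and intervals used SciPy 1.17.1, ratios within a library its conditional odds ratio, and assumed-variation tests edgeR 4.0.16. With 1 library per condition, neither edgeR's quasi-likelihood test nor DESeq2 could be fitted. The tests were checked on simulated counts drawn with counting error alone, so the check does not cover the spread between cultures. Gene spans and transcripts were those of GENCODE M1 on NCBIM37, and start windows those of RefSeq on GRCm38.p6.

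The members and lists were chosen with earlier results of these data known. Named were all members and Particl, genes that share a member's orthology entry or best protein match (Gm4737 and Ltn1 beside the members), genes of the other lists past 2-fold or highest in FPKM, and the 3 genes nearest to Mat2a; Mettl16, Ythdc1, Slc25a26, Amd1, Amd2, Mars, Pon2, Mut, Mcee, Azin1, Ethe1, Tcn2 and the cell markers and Bnip3 were named for their role or ratio, after their values were seen. The values of some listed genes are not reported here.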

Additional observations from a re-analysis of the deposited data

How the results depend on the processing

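No paired analysis was possible because only 1 library per condition was used, and none could be left out. Summing Ahcy with Gm4737 and Mat2a with Particl were alternatives chosen after seeing the data; the others were planned. The median log2 ratio of the members, -0.80, moved to -0.67 with edgeR's TMM (0.13 added to every log2 ratio), -0.67 with the median of ratios (0.14 added) and -0.64 relative to genes of like transcript length. It moved to -0.51 with rows of the same orthology entry or best protein match summed and -0.49 with Gm4737 added to Ahcy. The orthology sum merges Mat2a with Mat2b and Particl (log2 ratio -1.92), Ahcy with Ahcyl1, Ahcyl2 and Gm4737, and Cth with Ltn1, a ubiquitin ligase (801 and 590 reads). Under it Ahcyl2 changed sign, from 0.46 to -0.51, because the sum is mostly Gm4737, and the members past 2-fold were Mat2a, Mat2b and Mtrr.

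The count of 3 members past 2-fold was 3 under each of the 3 other scalings, relative to length, with no filter (at least 1 read), with a mean of at least 50 reads and with 5 reads added. With FPKM + 1 or with Gm4737 added to Ahcy it was 2, without Ahcy. At the study's cutoffs it was 6 with the adjusted p alone (5 lower, 1 higher; 38.6% of all genes tested passed), and by edgeR's exact test 2 at an assumed coefficient of variation of 0.1 (4.51% of all genes tested passed as lower and 3.21% as higher), 1 (Mat2a) at 0.2 (0.409% and 0.394%) and 0 at 0.4 (0.0372% and 0.00744%). At 0.4 few genes of any kind passed, and the call of Mat2a was not kept at that assumed spread. Filters on reads cannot change a member's ratio. Scalings of the neighbouring lists and of the intervals, also chosen after seeing the data, made 1 to 3 listed genes 2-fold higher (Ethe1 in each, Azin1 in 2, Tcn2 with the median of ratios) and left 5 members with an interval below 0. Particl with 11 HTL treatment reads, Mmab with 12 and Nt5e with 17 are limited by depth.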
